A study of Mus musculus with 2 samples.

Results

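Fibroblasts chosen by their transcripts of Pi16, Dpt and Ccl11, under the working name of adventitial fibroblasts, were described in lungs of bleomycin-injured mice treated with navitoclax or its vehicle. The choice gave 568 cells of the 16848 cell barcodes in the data, with 341 cells among 8064 barcodes in the navitoclax library and 227 cells among 8784 barcodes in the vehicle library. A cell first had to have at least 500 detected genes and at most 15% mitochondrial unique molecular identifiers (UMIs, each standing for 1 captured RNA molecule). It then had to have at least 5 UMIs of the collagen genes Col1a1, Col1a2 and Col3a1 together and at most 1 UMI of the epithelial gene Epcam, and the 6312 cells that did are called collagen-positive here. Collagen-positive cells with 2 or more UMIs of Cthrc1 (39 cells), or with at least 5 UMIs per 10000 of the mesothelial genes Msln, Upk3b and Lrrn4 (87 cells), were set aside. Of the rest, members had at least 5 UMIs of Pi16+Dpt+Ccl11 per 10000 and under 10 UMIs of the alveolar fibroblast genes Npnt+Ces1d+Inmt per 10000. The cells were thus chosen by measured genes, so levels of these genes, and any contrast with cells that the same genes kept out, are given as a description with no test.

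Navitoclax (ABT-263) is a small molecule that blocks BCL-2 and its relatives BCL-XL and BCL-W, proteins that hold back apoptosis. In the treated group, C57Bl6 mice received bleomycin, a DNA-damaging drug that scars the lung, on day 1 and navitoclax on days 15 to 20. The control group received the same bleomycin and the vehicle alone. Lungs of both groups were taken on day 21, and sorted epithelial and stromal cells were mixed in equal parts for 1 droplet library per group (the sources used here do not give the number of mice). The study addressed how BCL-2 bears on signalling of the endoplasmic reticulum (ER) stress sensor IRE1 alpha in lung fibrosis. There was no uninjured lung, and both groups carry the bleomycin injury.

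Adventitial fibroblasts lie in the loose connective tissue cuffs around large airways and vessels, where they lay down collagen bundles, secrete chemokines and complement proteins and keep a niche for immune cells and lymphatic vessels. Pi16, a secreted peptidase inhibitor, and Dpt, which encodes the collagen-binding matrix protein dermatopontin, mark fibroblasts of such cuffs in many organs. Alveolar fibroblasts lie in the gas-exchanging walls next to the epithelium and carry Npnt, an integrin ligand, and the enzymes Inmt and Ces1d. Peribronchial fibroblasts lie beneath the airway epithelium and carry Aspn, which encodes the small leucine-rich proteoglycan asporin, and Hhip, a Hedgehog antagonist.

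The libraries held 98517048 UMIs (navitoclax) and 97958947 UMIs (vehicle). The member cells contributed 2889734 UMIs in the navitoclax library and 1522336 UMIs in the vehicle library, with a median of 7241 UMIs and 2639 genes per navitoclax cell and 6025 UMIs and 2262 genes per vehicle cell. The libraries shared 20 barcodes, and none of them was a member in both libraries (0 shared among members). Scrublet, a doublet caller, marked 3 members of the navitoclax library and 2 members of the vehicle library, and these were kept. With 1 library per group no difference between navitoclax and vehicle has a replicate check, so no p-value is given, and every interval below is a 95% interval that covers counting error only.

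The data went against the label for most of the members, which carried peribronchial genes. In the navitoclax library 203 of the 341 members (59.5%) had at least 5 UMIs of Aspn+Hhip per 10000, and in the vehicle library 155 of 227 (68.3%) did; these are called Aspn/Hhip-high members. A further 86 navitoclax members (25.2%) and 54 vehicle members (23.8%) were below that level and had at least 5 UMIs of Pi16+Ccl11 per 10000, and are called Pi16/Ccl11-high members. The remaining 52 navitoclax members (15.2%) and 18 vehicle members (7.93%) were members mainly by Dpt. The subsets were drawn after the values had been seen. Both limits were passed by 25 navitoclax and 16 vehicle members, which count as Aspn/Hhip-high. Another 86 navitoclax and 54 vehicle members passed the Pi16+Ccl11 limit alone. In Aspn/Hhip-high members 177 of 203 navitoclax cells and 139 of 155 vehicle cells had no Pi16 UMI.

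**Figure D1:**
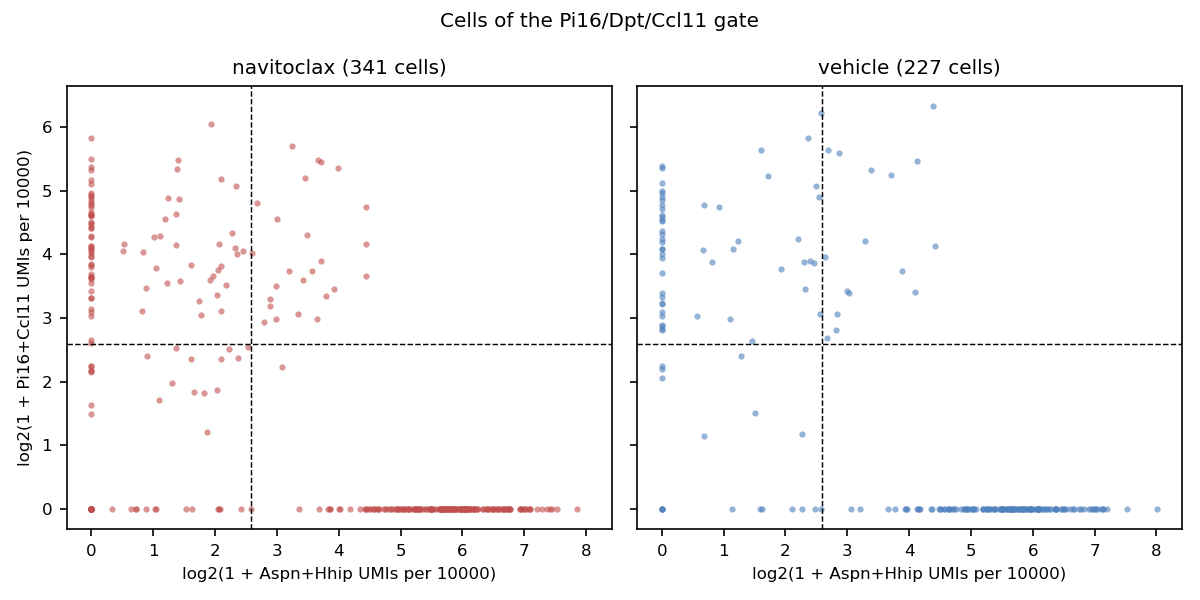
Each point is a member cell, with its UMIs of Aspn+Hhip per 10000 on the x axis and of Pi16+Ccl11 per 10000 on the y axis, both as log2(1 + value); the navitoclax library is on the left and the vehicle library on the right, and dashed lines mark 5 UMIs per 10000. In both libraries many cells lie along or near the axes, and 25 navitoclax cells and 16 vehicle cells lie past both lines.

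Of the 3 genes of the choice, Pi16 and Ccl11 helped to draw this division, so their levels in the subsets are a description. Most Aspn/Hhip-high members had no Pi16 UMI, and Ccl11 had a UMI in 9 of 203 navitoclax and 2 of 155 vehicle cells. The choice itself thus required Dpt in most of them. Levels are given as CPM, a gene's UMIs summed over the cells of a set and scaled to a common total. Pi16 reached 1175 CPM in navitoclax and 1528 CPM in vehicle Pi16/Ccl11-high members, against 248 CPM (navitoclax) and 355 CPM (vehicle) in Aspn/Hhip-high members. Ccl11, the eosinophil chemokine eotaxin, stood at 665 CPM (navitoclax) and 489 CPM (vehicle) in Pi16/Ccl11-high members and at 24.3 CPM (navitoclax) and 16.5 CPM (vehicle) in Aspn/Hhip-high members. Dpt stood at 879 CPM (navitoclax) and 617 CPM (vehicle) in Pi16/Ccl11-high members and at 946 CPM (navitoclax) and 1089 CPM (vehicle) in Aspn/Hhip-high members. Col14a1, a collagen that decorates collagen fibrils and was not used in the choice, had 641 CPM (navitoclax) and 658 CPM (vehicle) in Pi16/Ccl11-high members, with 297 CPM (navitoclax) and 350 CPM (vehicle) in Aspn/Hhip-high members.

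Adventitial markers outside the choice were mostly higher in Pi16/Ccl11-high members. Of 26 listed adventitial markers, 20 were at least 1.5-fold higher in Pi16/Ccl11-high than in Aspn/Hhip-high members in both libraries, and 1 was lower; over all 7226 genes measured in both subsets 5.48% were higher and 12.6% lower. Ly6a, the surface protein SCA-1, had 1556 CPM (navitoclax) and 1001 CPM (vehicle) in Pi16/Ccl11-high members, and 132 CPM (navitoclax) and 174 CPM (vehicle) in Aspn/Hhip-high members. The ratio between the subsets was 6.75 in the navitoclax library and 5.83 in the vehicle library for Clec3b, the plasminogen-binding protein tetranectin. It was 7.66 (navitoclax) and 5.77 (vehicle) for Serpinf1, the anti-angiogenic factor PEDF, and 11.1 (navitoclax) and 8.78 (vehicle) for complement component C3. Dcn, the collagen-binding proteoglycan decorin, stood at 12944 CPM (navitoclax) and 11655 CPM (vehicle) in Pi16/Ccl11-high members, against 5269 CPM (navitoclax) and 5531 CPM (vehicle) in Aspn/Hhip-high members. In alveolar fibroblasts, the collagen-positive cells under 5 UMIs of Pi16+Dpt+Ccl11 and with at least 10 UMIs of Npnt+Ces1d+Inmt per 10000, Dcn was at 376 CPM (navitoclax) and 358 CPM (vehicle).

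Aspn/Hhip-high members carried the other signature. None of the 10 listed peribronchial markers was higher in Pi16/Ccl11-high members (0 of 10), and 9 were at least 1.5-fold lower in both libraries. Aspn and Hhip are among these 9, and their direction was fixed by the way the subsets were drawn. Genes of smooth muscle and pericytes went with the same division: 13 of 16 were at least 1.5-fold higher in Aspn/Hhip-high than in Pi16/Ccl11-high members in both libraries and 0 lower. They summed to 3183 CPM (navitoclax) and 3446 CPM (vehicle) in Aspn/Hhip-high members, and to 436 CPM (navitoclax) and 346 CPM (vehicle) in Pi16/Ccl11-high members, and their part in the division was not tested. Aspn had 3017 CPM (navitoclax) and 2808 CPM (vehicle) in Aspn/Hhip-high members and 88.7 CPM (navitoclax) and 81 CPM (vehicle) in Pi16/Ccl11-high members, but Aspn and Hhip drew this line and are a description. Among listed genes that did not, Mustn1, a small nuclear protein of muscle and skeletal cells, had 1766 CPM (navitoclax) and 1938 CPM (vehicle) in Aspn/Hhip-high members, and 56.9 CPM (navitoclax) and 45.3 CPM (vehicle) in Pi16/Ccl11-high members. Fgf18, a fibroblast growth factor, had 304 CPM (navitoclax) and 286 CPM (vehicle) in Aspn/Hhip-high members, against 5.30 CPM (navitoclax) and 14.3 CPM (vehicle) in Pi16/Ccl11-high members. Lgr6, a receptor for R-spondins, had 83.5 CPM (navitoclax) and 111 CPM (vehicle) in Aspn/Hhip-high members and no UMI in Pi16/Ccl11-high members of either library (0 CPM). Enpp2, the lysophosphatidic acid producing enzyme autotaxin, had 1628 CPM (navitoclax) and 1755 CPM (vehicle) in Aspn/Hhip-high members and 6.62 CPM (navitoclax) and 38.1 CPM (vehicle) in Pi16/Ccl11-high members.

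**Figure D2:**
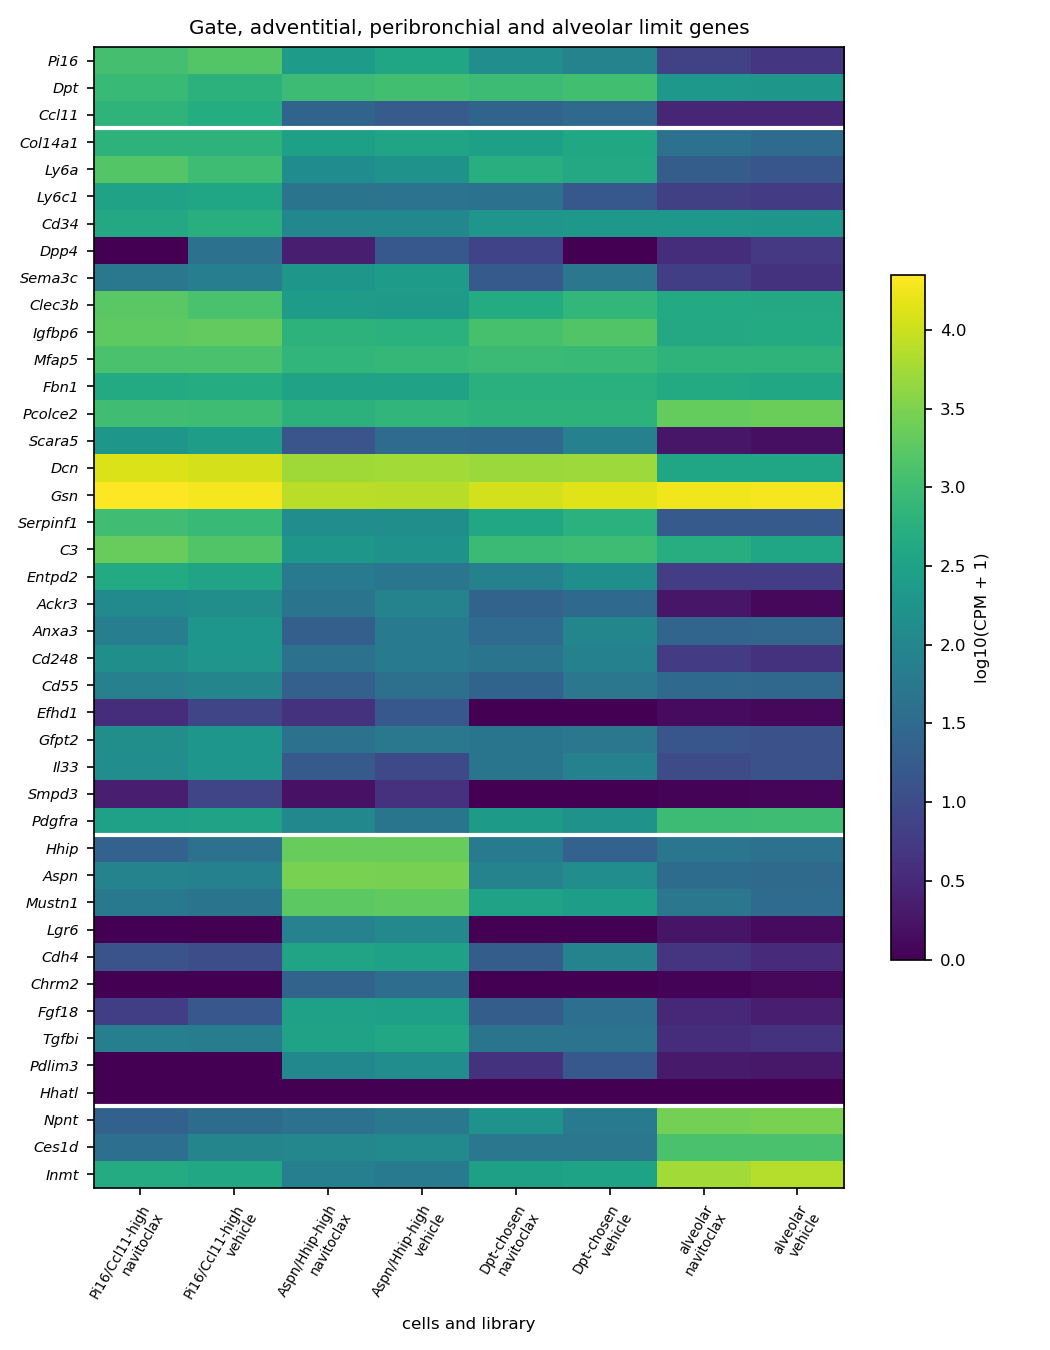
The heat map gives log10(CPM + 1) of gate genes and of listed adventitial, peribronchial and alveolar genes (rows) in Pi16/Ccl11-high members, Aspn/Hhip-high members, members chosen mainly by Dpt, and alveolar fibroblasts (columns, navitoclax left of vehicle in each pair). Mustn1, Fgf18 and Lgr6 are bright in Aspn/Hhip-high members (Mustn1 1766 CPM in navitoclax and 1938 CPM in vehicle), while Ly6a and C3 are brightest in Pi16/Ccl11-high members (Ly6a 1556 CPM in navitoclax and 1001 CPM in vehicle).

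The members were also divided by Pi16 alone at equal depth, after each cell had been thinned to 2000 UMIs. Pi16 also helped to draw the subsets above. Before thinning, 79 of 86 navitoclax and 49 of 54 vehicle Pi16/Ccl11-high members had a Pi16 UMI. The division by Pi16 therefore largely describes the same cells again and is no separate support. At least 1 Pi16 UMI was left in 90 navitoclax and 56 vehicle cells and none in 231 navitoclax and 160 vehicle cells. Aspn had 294 CPM (navitoclax) and 286 CPM (vehicle) in cells with Pi16, against 2760 CPM (navitoclax) and 2734 CPM (vehicle) in cells without. Cd34, a surface sialomucin, had 456 CPM (navitoclax) and 723 CPM (vehicle) in cells with Pi16, and 64.9 CPM (navitoclax) and 25 CPM (vehicle) in cells without. Cd34 was not particular to the members: it had a UMI in 35.8% of navitoclax and 32.6% of vehicle members, against 64.1% of navitoclax and 59.9% of vehicle alveolar fibroblasts. After thinning the shares were 20.6% of navitoclax and 20.4% of vehicle members, against 32.3% of navitoclax and 28.5% of vehicle alveolar fibroblasts, and 0.151% of navitoclax and 0.330% of vehicle epithelial cells. Entpd2, an ATP-splitting ectoenzyme, had 572 CPM (navitoclax) and 384 CPM (vehicle) in cells with Pi16, and 47.6 CPM (navitoclax) and 50 CPM (vehicle) in cells without.

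Set against alveolar fibroblasts, members as a whole showed both signatures at once. Over 11691 genes, 831 (7.11%) were at least 1.5-fold higher and 958 (8.19%) lower in members in both libraries. Of the listed markers, 14 of 26 adventitial genes were higher in members and 2 lower. Of 10 peribronchial genes 9 were higher and 0 lower, and of 18 alveolar genes 16 were lower and 0 higher. The summed level of the adventitial list differed little, at 26868 CPM (navitoclax) and 25556 CPM (vehicle) in members. It was 24025 CPM (navitoclax) and 25489 CPM (vehicle) in alveolar fibroblasts. The ratio of members over alveolar fibroblasts was 71.6 (navitoclax) and 116 (vehicle) for Lum, the proteoglycan lumican. It was 71.6 (navitoclax) and 81.2 (vehicle) for Tgfbi, a matrix protein induced by TGF-beta, and 38.2 (navitoclax) and 48.9 (vehicle) for the cytochrome P450 enzyme Cyp2e1. On the other side, Gja5, the gap junction protein connexin 40, was 97.7-fold (navitoclax) and 111-fold (vehicle) higher in alveolar fibroblasts than in members. The ligand Wnt2 was 44.1-fold (navitoclax) and 47.6-fold (vehicle) higher in alveolar fibroblasts, and the integrin chain Itga8 20.9-fold (navitoclax) and 25.2-fold (vehicle). Any of these genes that goes with the genes of the choice had to differ, so these ratios describe the cells and are no test.

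Many cells with high Pi16 and Ccl11 were not members, because they exceeded the limit on alveolar genes. Of all collagen-positive cells with at least 5 UMIs of Pi16+Ccl11 and under 5 of Aspn+Hhip per 10000, members made up 31.2% (25.7 to 37.0; 86 of 276 cells) in the navitoclax library and 16.5% (12.7 to 21.0; 54 of 327 cells) in the vehicle library. Of the genes behind the limit, Inmt, an indolethylamine methyltransferase, stood above Npnt. Over all these Pi16/Ccl11-high cells Inmt had 1846 CPM (navitoclax) and 2727 CPM (vehicle), while Npnt had 61.2 CPM (navitoclax) and 148 CPM (vehicle). The level of Ces1d over these cells is not given here. In Pi16/Ccl11-high members Inmt held 355 of the 400 navitoclax UMIs and 163 of the 216 vehicle UMIs of Npnt+Ces1d+Inmt. Alveolar fibroblasts had 5642 CPM (navitoclax) and 7297 CPM (vehicle) of Inmt, and 2759 CPM (navitoclax) and 2983 CPM (vehicle) of Npnt. Near the limits, 22 navitoclax and 17 vehicle members lay at 5 to under 6 UMIs of Pi16+Dpt+Ccl11 per 10000, and 25 navitoclax and 19 vehicle cells lay at 4 to under 5 and were left out. For Npnt+Ces1d+Inmt, 40 navitoclax and 23 vehicle members lay at 8 to under 10 per 10000, and 39 navitoclax and 21 vehicle cells lay at 10 to under 12 and were left out. In what follows the cells are called Pi16/Dpt/Ccl11 fibroblasts, after the genes that chose them.

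Every member had to carry Pi16, Dpt or Ccl11 and epithelial cells did not, so detection above the epithelial level was required by the choice. The shares below describe which of the 3 genes the members carried. Dpt had a UMI in 93.3% of navitoclax and 93.4% of vehicle members (77.9% of navitoclax and 78.2% of vehicle cells after thinning to 2000 UMIs), against 3.44% of navitoclax and 2.74% of vehicle epithelial cells. Pi16 had a UMI in 35.8% of navitoclax and 31.3% of vehicle members (28.0% of navitoclax and 25.9% of vehicle cells thinned), against 1.74% of navitoclax and 1.02% of vehicle epithelial cells. Ccl11 had a UMI in 23.2% of navitoclax and 17.2% of vehicle members (15.3% of navitoclax and 12% of vehicle cells thinned), against 0.604% of navitoclax and 0.366% of vehicle epithelial cells. Epithelial cells, with 19666 (navitoclax) and 17956 (vehicle) UMIs per cell at the median, were deeper than members, and their shares give the level reached by free RNA. Dpt was thus detected in most members, and Pi16 and Ccl11 in a minority of them.

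Pi16/Dpt/Ccl11 fibroblasts made up a larger share of collagen-positive cells after navitoclax. Their share was 11.9% (exact Clopper-Pearson interval 10.8 to 13.2; 341 of 2856 cells) in the navitoclax library and 6.57% (5.76 to 7.45; 227 of 3456 cells) in the vehicle library, a difference of 5.37 points (Newcombe interval 3.94 to 6.84). Aspn/Hhip-high members made up 7.11% (6.19 to 8.11) in navitoclax and 4.48% (3.82 to 5.23) in vehicle. Pi16/Ccl11-high members made up 3.01% (2.42 to 3.71) in navitoclax and 1.56% (1.18 to 2.03) in vehicle. Members chosen mainly by Dpt made up 1.82% (1.36 to 2.38) in navitoclax and 0.521% (0.309 to 0.822) in vehicle, a difference of 1.30 points (0.775 to 1.89). The share of alveolar fibroblasts was 40.2% in navitoclax and 44.7% in vehicle, a difference of -4.47 points (-6.91 to -2.02).

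Without the limit on alveolar genes, the cells that met all other conditions made up 53.6% of collagen-positive cells in navitoclax and 49.4% in vehicle. This was a difference of 4.28 points (1.80 to 6.75). Counted without that limit, all Pi16/Ccl11-high cells made up 9.66% (8.60 to 10.8) of collagen-positive cells in navitoclax and 9.46% (8.51 to 10.5) in vehicle, a difference of 0.202 points whose interval runs from -1.25 to 1.67. Those that exceeded the limit made up 6.65% in navitoclax and 7.90% in vehicle. All Aspn/Hhip-high cells were counted without the limit on alveolar genes and also without the minimum of Pi16+Dpt+Ccl11. They made up 14.3% in navitoclax and 11.1% in vehicle, a difference of 3.27 points (1.62 to 4.94). Inmt had 5642 CPM in navitoclax and 7297 CPM in vehicle alveolar fibroblasts, 1846 CPM (navitoclax) and 2727 CPM (vehicle) in all Pi16/Ccl11-high cells, and 226 CPM (navitoclax) and 173 CPM (vehicle) in members, and its part in the share of members was not tested.

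**Figure D3:**
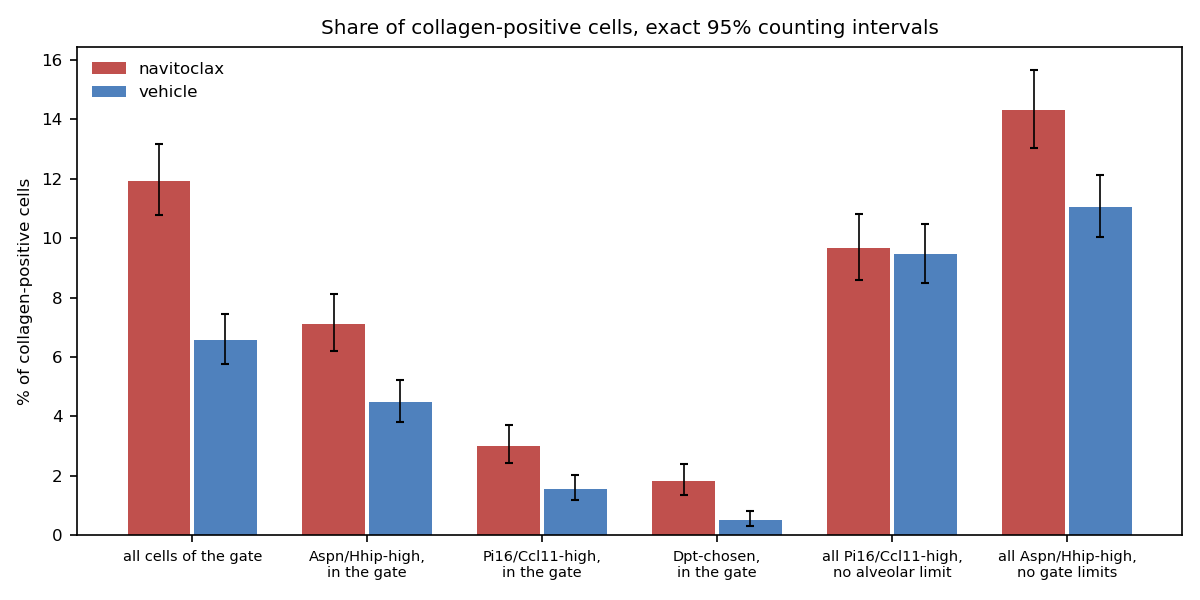
Bars give the percentage of collagen-positive cells in 6 sets of cells (x axis), navitoclax left of vehicle, with exact 95% binomial intervals for counting error. Members stand at 11.9% in navitoclax and 6.57% in vehicle, while all Pi16/Ccl11-high cells, counted without the alveolar limit, stand at 9.66% in navitoclax and 9.46% in vehicle.

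Among the genes named by the ranking described under the processing, the 3 with the highest navitoclax over vehicle ratios in members encode cytosolic chaperones. A gene was counted as higher or lower when its ratio of summed CPM reached 1.5-fold after 5 CPM had been added to both sides, among the 10371 genes with at least 20 UMIs over both libraries. By this measure 322 genes (3.1%) were higher and 381 genes (3.67%) were lower in navitoclax members. Over all these genes the median log2 ratio was -0.015, so genes with a ratio above 1 were a minority. Counts for the gene lists below are to be read beside these values. In Aspn/Hhip-high members 5.38% of genes were higher and 4.01% lower, and in Pi16/Ccl11-high members 8.38% were higher and 12.1% lower. Over the 12452 genes measured in alveolar fibroblasts, which were more numerous cells, 0.562% were higher and 0.337% lower. The sets differ in cells and UMIs, so these shares do not measure the strength of a response.

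Of 22 listed heat shock genes, 8 were past 1.5-fold higher and 17 had a ratio above 1, with a median log2 ratio of 0.42, beside -0.015 over all genes measured. Hspa1b, which encodes the stress-inducible cytosolic chaperone HSP70, had 440 CPM in navitoclax members and 58.5 CPM in vehicle members, a ratio of 7.53 (6.07 to 9.44). Its near-identical neighbour Hspa1a had 955 CPM (navitoclax) and 160 CPM (vehicle), a ratio of 5.99 (5.25 to 6.85). The genes lie at chr17:34956436-34959238 (Hspa1b) and chr17:34969190-34972156 (Hspa1a), both on the minus strand of GRCm38, and how reads were divided between such copies is uncertain. Dnajb1, the HSP40 co-chaperone that feeds clients to HSP70, had 302 CPM (navitoclax) and 86.1 CPM (vehicle), a ratio of 3.51 (2.92 to 4.26). Hspb1, the small heat shock protein HSP27, had 871 CPM (navitoclax) and 420 CPM (vehicle), a ratio of 2.07 (1.90 to 2.26). The ratio was 2.86 for Hsph1, an HSP70 nucleotide exchange factor, 2.02 for Stip1, which links HSP70 to HSP90, and 1.77 for the constitutive chaperone Hspa8. It was 1.02 for the mitochondrial chaperone Hspd1.

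More single cells contained these transcripts as well. Hspa1b had a UMI in 79.2% of navitoclax and 24.7% of vehicle members, and in 48.3% of navitoclax and 8.80% of vehicle members after thinning to 2000 UMIs. Hspa1a had a UMI in 81.8% of navitoclax and 50.7% of vehicle members, and in 68.8% of navitoclax and 23.1% of vehicle members after thinning. Epithelial cells, which are not fibroblasts, gave 72.3% (navitoclax) and 11.2% (vehicle) for Hspa1b, so the difference was not limited to the members. In both subsets of members the ratio for Hspa1b was close to that of all members, at 7.55 in Aspn/Hhip-high and 7.47 in Pi16/Ccl11-high members. In alveolar fibroblasts Hspa1b had 379 CPM (navitoclax) and 10.2 CPM (vehicle), a ratio of 37.1, and Hspa1a a ratio of 13.1. The list median was 0.28 in alveolar fibroblasts, with Dnajb1 at a ratio of 3.25 and Hspb1 at 1.92. With 1 library per group, a difference between cell classes in this response could not be tested.

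The 250 bases before the annotated start of 3 of these genes are shown because heat shock factors bind inverted repeats of GAA; capitals mark each match to GAANNTTC, which reads the same on both strands, and the other spacing searched, TTCNNGAA, had no match here. The sequences are from RefSeq on GRCm38.p6, at chr17:34972157-34972406 (minus strand) for Hspa1a, chr17:34959239-34959488 (minus strand) for Hspa1b and chr5:135887669-135887918 (plus strand) for Hspb1.
Hspa1a: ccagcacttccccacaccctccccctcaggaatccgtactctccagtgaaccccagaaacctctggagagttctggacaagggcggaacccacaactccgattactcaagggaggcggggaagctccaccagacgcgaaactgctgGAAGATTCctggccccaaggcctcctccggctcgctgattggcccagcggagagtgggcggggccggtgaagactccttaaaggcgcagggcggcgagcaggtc
Hspa1b: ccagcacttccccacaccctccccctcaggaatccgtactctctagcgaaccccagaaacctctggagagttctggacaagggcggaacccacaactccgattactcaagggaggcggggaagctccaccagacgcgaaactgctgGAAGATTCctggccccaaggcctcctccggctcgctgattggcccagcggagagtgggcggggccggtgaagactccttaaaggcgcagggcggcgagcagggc
Hspb1: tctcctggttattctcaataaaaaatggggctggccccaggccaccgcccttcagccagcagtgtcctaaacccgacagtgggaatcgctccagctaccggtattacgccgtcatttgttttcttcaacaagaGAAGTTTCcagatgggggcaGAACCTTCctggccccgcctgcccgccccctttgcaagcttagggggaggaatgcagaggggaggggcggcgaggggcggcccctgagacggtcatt
Hspa1a and Hspa1b each held 1 match and Hspb1 held 2, and the Hspa1a and Hspa1b windows were identical at 247 of 250 bases. No match was found in the 2 windows annotated for Dnajb1. Of the 18 listed heat shock genes with a window, 9 held at least 1 of the motifs, against 14.5% of all 27025 genes with a window. A match is a description of the letters and not of binding.

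**Figure D4:**
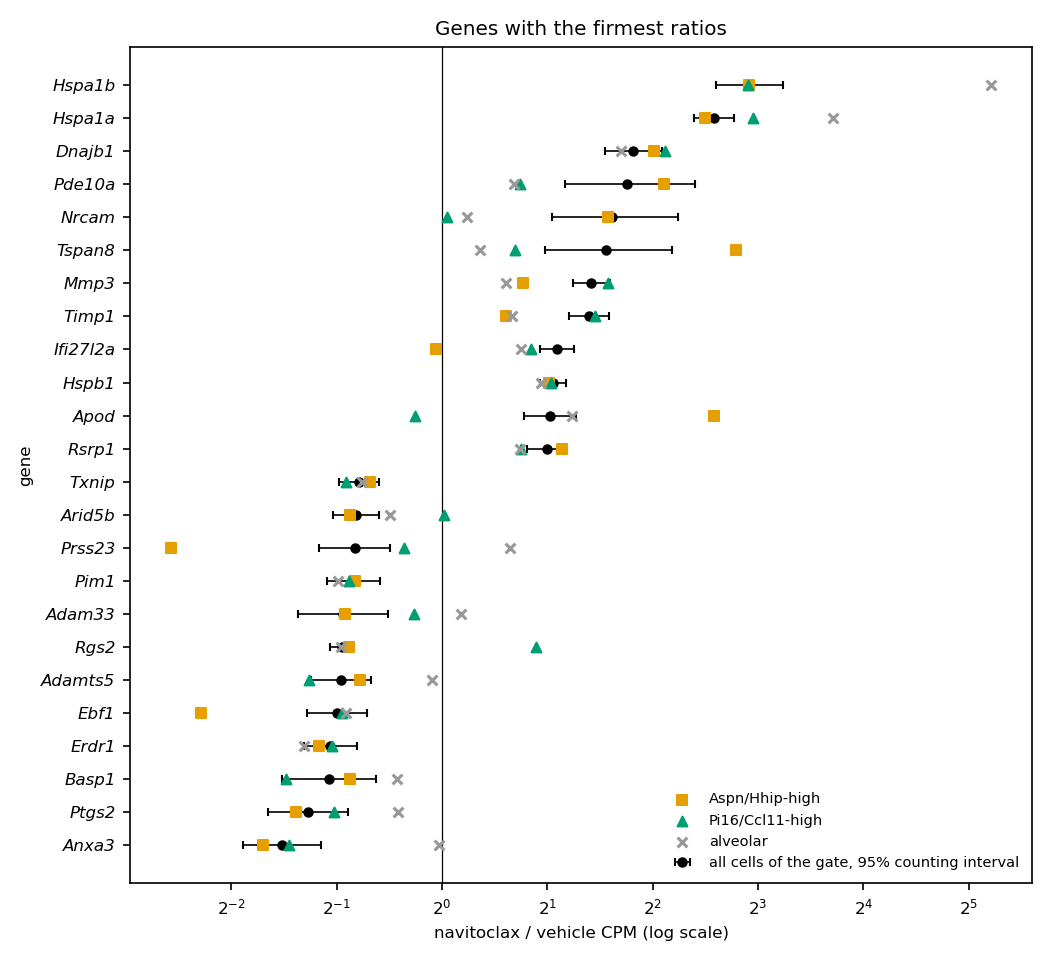
Navitoclax over vehicle ratios (log axis) of summed CPM are given for the 24 genes named by the ranking rule, with all members in black and their 95% counting intervals, Aspn/Hhip-high members as squares, Pi16/Ccl11-high members as triangles and alveolar fibroblasts as crosses. Hspa1b (7.53) and Hspa1a (5.99) lie farthest right, Anxa3 (0.349) and Ptgs2 (0.414) farthest left, and the subsets part for Apod, Rgs2 and Ifi27l2a.

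Of 16 listed ER chaperone genes 14 had a ratio above 1 in members, and 1 gene, Hspa5, was past 1.5-fold. Their median log2 ratio was 0.28, beside -0.015 over all genes measured. In Aspn/Hhip-high members the median was 0.37 for ER chaperones and 0.34 for heat shock genes, and in Pi16/Ccl11-high members it was 0.18 for ER chaperones and 0.48 for heat shock genes. Hspa5, the ER chaperone BiP, had 792 CPM in navitoclax and 495 CPM in vehicle members, a ratio of 1.60 (1.47 to 1.74), with 1.56 in Aspn/Hhip-high members, 1.79 in Pi16/Ccl11-high members and 1.31 in alveolar fibroblasts. Among 21 genes of the IRE1 and XBP1 branch, 18 had a ratio above 1 and none was past 1.5-fold (0 higher), with a median of 0.16. Xbp1, the transcription factor whose RNA is spliced by IRE1, had 172 CPM (navitoclax) and 133 CPM (vehicle), a ratio of 1.29 (1.09 to 1.52). Ern1, which encodes IRE1 alpha, had 11.4 CPM (navitoclax) and 11.8 CPM (vehicle), and its ratio of 0.966 had an interval from 0.528 to 1.82, so no difference within that range was detectable at this depth. Counts per gene do not show whether Xbp1 was spliced. Syvn1, an ER ubiquitin ligase, had a ratio of 0.617.

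The targets of the drug were sparsely counted. Bcl2 had 42.9 CPM in navitoclax and 59.8 CPM in vehicle members, a ratio of 0.718 (0.543 to 0.952). Bcl2l1, which encodes BCL-XL, had 21.5 CPM (navitoclax) and 24.3 CPM (vehicle), a ratio of 0.883 (0.578 to 1.36). Bcl2l2, which encodes BCL-W, had 12.8 CPM (navitoclax) and 16.4 CPM (vehicle), a ratio of 0.780 (0.457 to 1.35). In Pi16/Ccl11-high members the ratio was 0.586 for Bcl2, 0.602 for Bcl2l1 and 0.342 for Bcl2l2, all past 1.5-fold lower. These rest on 19, 13 and 8 UMIs in navitoclax members and 18, 12 and 13 UMIs in vehicle ones, and the counting interval included 1 for Bcl2 (0.291 to 1.18) and Bcl2l1 (0.253 to 1.44) but not for Bcl2l2 (0.123 to 0.890). In Aspn/Hhip-high members the ratio was 0.665 for Bcl2, 1.09 for Bcl2l1 and 1.59 for Bcl2l2, and in alveolar fibroblasts 1.01 for Bcl2, 1.07 for Bcl2l1 and 1.53 for Bcl2l2, none of them past 1.5-fold once 5 CPM was added to both libraries. The median log2 ratio of the 4 measured anti-apoptotic genes was -0.21 in members, -0.63 in Pi16/Ccl11-high members and 0.078 in Aspn/Hhip-high members. None of 20 listed p53 and senescence genes was past 1.5-fold (0 of 20), and their median log2 ratio was 0.029.

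The main fibrillar collagen genes did not reach 1.5-fold in members. Col1a1 had 3158 CPM (navitoclax) and 2409 CPM (vehicle), Col1a2 had 3967 CPM (navitoclax) and 3108 CPM (vehicle), and Col3a1 had 5541 CPM (navitoclax) and 4751 CPM (vehicle), at ratios of 1.31, 1.28 and 1.17. These 3 genes also served to choose the cells. Of 23 listed genes for fibrillar collagens and their processing, 17 had a ratio above 1. Their median log2 ratio was 0.26, beside -0.015 over all genes measured in members and 0.29 for the list in alveolar fibroblasts. P4ha1, a prolyl hydroxylase subunit, was past 1.5-fold at 1.63, and Col12a1, a collagen of stressed tissue, was lower at 0.628. Among other matrix genes the ratio was 3.12 for Fmod, the proteoglycan fibromodulin, 1.70 for Tnc, tenascin-C of wounds, and 0.479 for Postn, periostin of fibrotic matrix. Postn differed in direction from alveolar fibroblasts, where its ratio was 3.56. The direction of Fmod and Col12a1 turned when the limit on alveolar genes was dropped, to log2 ratios of -0.17 and 0.22.

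Matrix proteases and their inhibitors were among the named genes. Timp1, which inhibits metalloproteinases and lies at chrX:20870166-20874735 on the plus strand, had 491 CPM in navitoclax and 187 CPM in vehicle members, a ratio of 2.62 (2.31 to 2.99). It stood at 1.53 in Aspn/Hhip-high members, 2.73 in Pi16/Ccl11-high members and 1.58 in alveolar fibroblasts. Mmp3, the broad matrix protease stromelysin, had 559 CPM (navitoclax) and 210 CPM (vehicle), a ratio of 2.67 (2.37 to 3.02), but 293 of its 1616 navitoclax UMIs came from 1 cell, and its log2 ratio was 0.26 after thinning. Adamts5, an aggrecan-splitting protease, was lower, with 71.3 CPM (navitoclax) and 139 CPM (vehicle), a ratio of 0.514. Adam33, a membrane metalloprotease of mesenchymal cells, had a ratio of 0.521. Over the 20 listed metalloproteinases and inhibitors, 4 were higher and 2 lower, with a median log2 ratio of 0.089.

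Genes lower in navitoclax members included regulators of signalling and prostaglandin synthesis. Anxa3, a calcium-dependent phospholipid-binding protein and a listed adventitial marker at chr5:96793339-96845966 on the plus strand, had 36 CPM in navitoclax and 103 CPM in vehicle members, a ratio of 0.349 (0.270 to 0.450). It was lower in both subsets, at 0.308 in Aspn/Hhip-high and 0.366 in Pi16/Ccl11-high members, and stood at 0.983 in alveolar fibroblasts. Ptgs2, the inducible cyclooxygenase, had 37.0 CPM (navitoclax) and 89.3 CPM (vehicle), a ratio of 0.414 (0.319 to 0.538). Basp1, a membrane-bound signalling protein, was at 0.475 and the transcription factor Ebf1 at 0.499. Rgs2, which damps G-protein signalling, had 492 CPM (navitoclax) and 954 CPM (vehicle), a ratio of 0.516 (0.480 to 0.556); the direction turned in Pi16/Ccl11-high members, where the ratio was 1.85. Pim1, a serine/threonine kinase, was at 0.559, the arrestin-like Txnip at 0.580, the chromatin regulator Arid5b at 0.567 and the serine protease Prss23 at 0.563. Arid5b turned to a log2 ratio of 0.016 in Pi16/Ccl11-high members, and Prss23 to 0.18 after thinning. Erdr1, at 0.479, was also lower in alveolar fibroblasts, at 0.404.

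Of 19 listed chemokines and cytokines, 4 were past 1.5-fold higher and 2 lower in navitoclax members, and 14 had a ratio above 1, with a median log2 ratio of 0.36, beside -0.014 in alveolar fibroblasts. Cxcl10, an interferon-induced T-cell chemokine, had 54.7 CPM (navitoclax) and 13.8 CPM (vehicle), a ratio of 3.96 that was 6.79 in Aspn/Hhip-high and 0.764 in Pi16/Ccl11-high members. Ccl2, the monocyte chemokine, had 96.9 CPM (navitoclax) and 9.20 CPM (vehicle), but 192 of its 280 navitoclax UMIs came from 1 cell. Cxcl14 had 201 CPM (navitoclax) and 83.4 CPM (vehicle), a ratio of 2.41 that was 4.58 in Aspn/Hhip-high and 0.578 in Pi16/Ccl11-high members. Ccl11 had 192 CPM (navitoclax) and 148 CPM (vehicle), a ratio of 1.30 (1.11 to 1.52). The sums for Cxcl10, Cxcl14 and Ccl2 thus rested on particular cells or 1 subset.

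Of 13 complement genes, 11 had a ratio above 1 and 2 were past 1.5-fold, Cfb, an activator of the alternative pathway, at 1.97 and the terminal component C7 at 1.67, which turned to a log2 ratio of -0.26 without the limit on alveolar genes. Of 27 interferon genes, 22 had a ratio above 1 and 3 were past 1.5-fold, the transcription factors Irf7 at 2.54 and Irf1 at 1.64 and the surface protein Bst2 at 1.59. Over all genes measured, 3.1% were past 1.5-fold higher in members and 8.38% in Pi16/Ccl11-high members. Irf1 turned to -0.024 without the limit on alveolar genes and Bst2 to -0.058 in Aspn/Hhip-high members. Ifi27l2a, an interferon-inducible gene, had 572 CPM (navitoclax) and 269 CPM (vehicle), a ratio of 2.13 (1.91 to 2.38). The median log2 ratio of interferon genes was 0.13 in members, 0.037 in Aspn/Hhip-high members and 0.44 in Pi16/Ccl11-high members, where 8 of 20 genes were past 1.5-fold higher and 1 lower, and that of complement genes was 0.29 in members, 0.20 in Aspn/Hhip-high members and 0.35 in Pi16/Ccl11-high members. Ifi27l2a stood at 0.962 in Aspn/Hhip-high, 1.80 in Pi16/Ccl11-high members and 1.68 in alveolar fibroblasts.

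Further genes named by the ranking had larger ratios in Aspn/Hhip-high than in Pi16/Ccl11-high members, a difference between subsets that could not be tested. Apod, a lipid-carrying lipocalin, had 227 CPM (navitoclax) and 112 CPM (vehicle), a ratio of 2.03 that was 5.99 in Aspn/Hhip-high and 0.839 in Pi16/Ccl11-high members, and its log2 ratio was -0.11 without the limit on alveolar genes. The tetraspanin Tspan8 had 56.1 CPM (navitoclax) and 19.0 CPM (vehicle), a ratio of 2.94, with 6.91 in Aspn/Hhip-high and 1.62 in Pi16/Ccl11-high members. Pde10a, a cyclic nucleotide phosphodiesterase, had a ratio of 3.38, with 4.32 in Aspn/Hhip-high and 1.67 in Pi16/Ccl11-high members. The adhesion molecule Nrcam had a ratio of 3.07, with 2.98 in Aspn/Hhip-high and 1.03 in Pi16/Ccl11-high members. Rsrp1 stood at 1.99 overall and at 1.67 in alveolar fibroblasts.

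Growth factor and morphogen genes gave few differences past 1.5-fold. Of 22 Wnt and Hedgehog genes, 2 were higher and 2 lower, with a median log2 ratio of -0.11. Sfrp1, a secreted Wnt antagonist, had 262 CPM in navitoclax and 133 CPM in vehicle members, a ratio of 1.96 (1.68 to 2.31), with 1.66 in Aspn/Hhip-high members, 2.46 in Pi16/Ccl11-high members and 1.14 in alveolar fibroblasts. Its relative Sfrp4 had 13.5 CPM (navitoclax) and 30.9 CPM (vehicle), a ratio of 0.437 (0.278 to 0.683). Of 14 genes for insulin-like growth factors and their binding proteins, 11 had a ratio above 1 and 2 were past 1.5-fold higher, with a median of 0.18. Among the binding proteins Igfbp4, which holds back insulin-like growth factors, had 1363 CPM (navitoclax) and 929 CPM (vehicle), a ratio of 1.47 (1.38 to 1.56), and Igfbp6 had 1094 CPM (navitoclax) and 1070 CPM (vehicle), a ratio of 1.02 (0.962 to 1.09). Of 27 genes of TGF-beta and BMP signalling 1 was higher and 0 lower, and the median was -0.051.

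Among lipid and hyaluronan genes, those past 1.5-fold were mostly lower in navitoclax members. Of 21 genes of lipid handling and retinoids, 1 was past 1.5-fold higher and 6 lower, among them the adipogenic transcription factors Cebpa, Ebf1 and Ebf2, while the median was 0.032. Another of the 6, Fabp5, a fatty-acid binding protein also made by epithelium, had a log2 ratio of -1.99 that was -0.56 without the 5 navitoclax and 8 vehicle members rich in epithelial RNA; listed epithelial genes summed to 8820 CPM in navitoclax and 17681 CPM in vehicle members, and their part in the other lipid genes was not tested. Of 19 hyaluronan and prostaglandin genes 0 were higher and 2 lower, Ptgs2 and Ugdh. Ugdh, which makes the sugar precursor of hyaluronan, had 67.8 CPM in navitoclax and 143 CPM in vehicle members, a ratio of 0.474 (0.389 to 0.577). It was at 0.518 in Aspn/Hhip-high and 0.404 in Pi16/Ccl11-high members, and 1.05 in alveolar fibroblasts. Of 29 immediate early genes, which respond within minutes to stimulation, 1 was higher and 0 lower, with a median of -0.14, beside -0.27 in alveolar fibroblasts. Ier2, a nuclear protein of this group, had 1240 CPM (navitoclax) and 1634 CPM (vehicle), a ratio of 0.759 (0.721 to 0.799).

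Mgp, which encodes the calcification inhibitor matrix Gla protein, was singled out after its values were seen, because it took a large share of the counts. It had 42720 CPM (123451 UMIs) in navitoclax and 25282 CPM (38488 UMIs) in vehicle members, a ratio of 1.69 (1.67 to 1.71). Its level per cell was 322 UMIs per 10000 at the median in navitoclax members and 168 in vehicle members. In Aspn/Hhip-high members Mgp had 34075 CPM (navitoclax) and 22185 CPM (vehicle), in Pi16/Ccl11-high members 48452 CPM (navitoclax) and 27495 CPM (vehicle), and in alveolar fibroblasts 28920 CPM (navitoclax) and 21010 CPM (vehicle). It was higher in the navitoclax library in each of these sets.

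Marker lists of fibroblast types had medians of opposite sign. All 12 measured genes of the universal fibroblast list, which describes Pi16-bearing fibroblasts shared between organs, had a ratio below 1 (0 above), 5 of them past 1.5-fold, with a median log2 ratio of -0.54, beside 0.074 in alveolar fibroblasts. The median was -0.53 in Aspn/Hhip-high members, -0.25 in Pi16/Ccl11-high members, -0.15 in all Pi16/Ccl11-high cells and -0.16 after thinning. Dpp4, a surface peptidase of this list, had 2.08 CPM in navitoclax and 20.4 CPM in vehicle members, a ratio of 0.102 (0.0348 to 0.248). Efhd1, a calcium-binding mitochondrial protein, was at 0.217, and Emilin2, an elastic fibre glycoprotein, at 0.331. Efhd1 rested on 7 navitoclax and 17 vehicle UMIs, all in members with a Pi16 UMI. Over the alternatives of processing, the log2 ratio ran from -1.83 to -0.25 for Efhd1 and from -1.48 to -0.35 for Emilin2. The wider list of 25 measured adventitial markers had 5 genes past 1.5-fold lower and none higher (0), with a median of -0.15. These 5 were Dpp4, Efhd1, Anxa3, the scavenger receptor Scara5 and the chemokine-scavenging receptor Ackr3, and 4 of them are on both lists. Scara5 turned to a log2 ratio of 0.15 after thinning. Pi16 itself had 465 CPM (navitoclax) and 655 CPM (vehicle), a ratio of 0.711 (0.654 to 0.772), although the share of members with a Pi16 UMI was higher in navitoclax.

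The 9 measured peribronchial genes likewise all had a ratio below 1 (0 above), 2 of them past 1.5-fold, with a median of -0.33. Within Aspn/Hhip-high members the median was -0.13, and these were 59.5% of navitoclax and 68.3% of vehicle members. The median was 0.44 for the 12 genes of the Col15a1 fibroblast list, with Apod and C7 past 1.5-fold, and 0.17 within Aspn/Hhip-high members. Of 15 alveolar fibroblast genes 14 had a ratio above 1 and 7 were past 1.5-fold, with a median of 0.41, beside -0.13 in alveolar fibroblasts. Among them Tcf21, a transcription factor of lung mesenchyme, was at 1.63 and Limch1, an actomyosin regulator, at 1.72. The alveolar list includes none of the 3 genes that set the limit, but without that limit its median turned to -0.12 and that of the peribronchial list to 0.41.

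**Figure D5:**
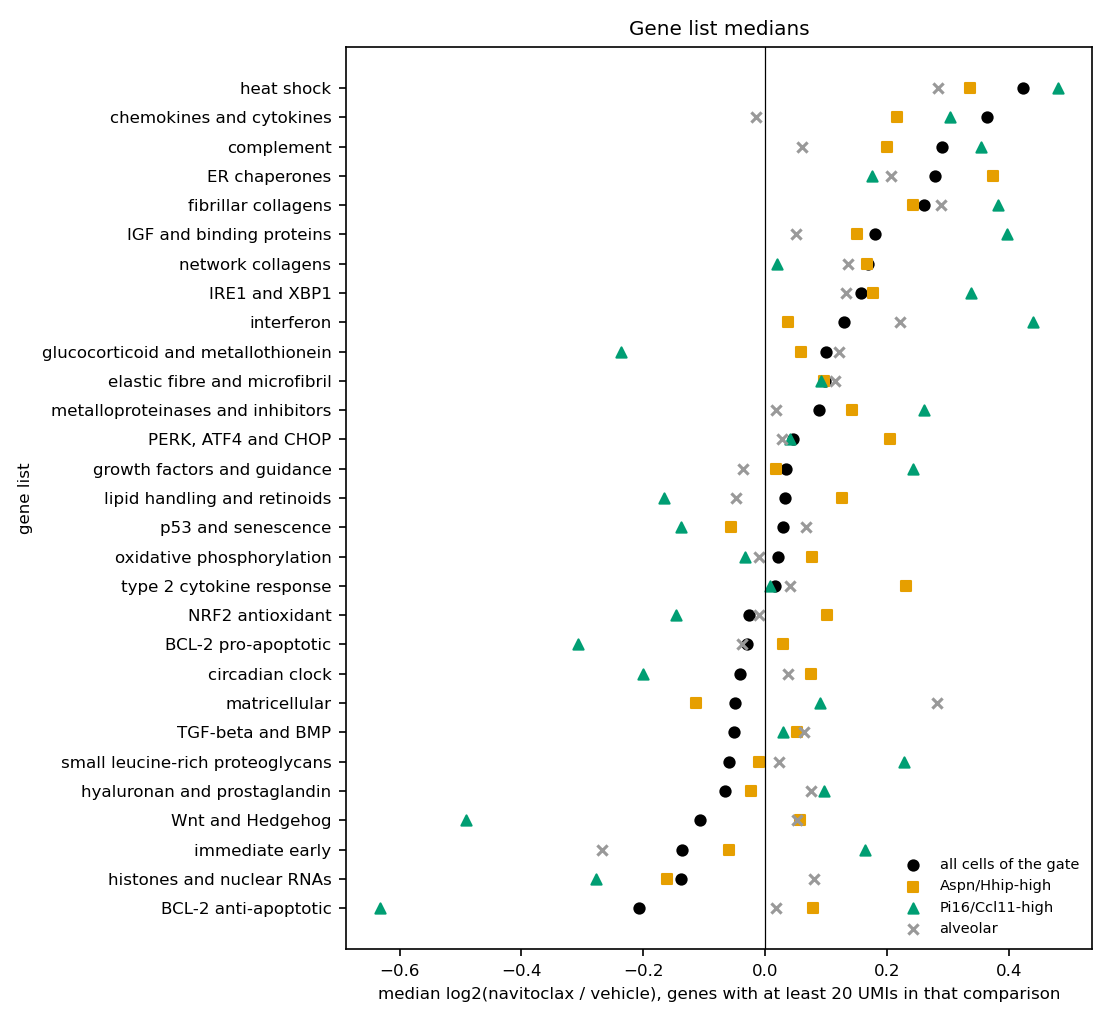
Median log2 navitoclax over vehicle ratios (x axis) are given for 29 gene lists (rows) in all members, Aspn/Hhip-high members, Pi16/Ccl11-high members and alveolar fibroblasts. Heat shock genes lie right of 0 in each set (0.42 in members and 0.28 in alveolar fibroblasts), and the ER chaperones lie right of 0 at 0.28 in members and 0.21 in alveolar fibroblasts.

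RNA of other cell types differed between the libraries in these sums. The 15 listed epithelial genes, lower in navitoclax members as a whole, summed to 11310 CPM (navitoclax) and 50225 CPM (vehicle) in Pi16/Ccl11-high members, and 3646 CPM (navitoclax) and 4465 CPM (vehicle) in Aspn/Hhip-high members. In 5 navitoclax and 8 vehicle members, 5% or more of the UMIs came from that list. Without those cells the median of the epithelial list was -0.0018, against -0.88 with them. The 16 leukocyte genes summed to 1246 CPM (navitoclax) and 1996 CPM (vehicle), mostly of Lyz2 and Cd74, while the defining genes Ptprc, Adgre1, Itgam and Cd3e were at 0 in both libraries. The 12 endothelial genes summed to 8.31 CPM (navitoclax) and 12.5 CPM (vehicle), with 6 of them at 0 in each library, Cdh5 and Cldn5 among them, and the red cell genes were at 0 in both libraries. Without the epithelial-rich cells the log2 ratio was 2.81 for Hspa1b, 1.42 for Timp1 and -1.43 for Anxa3, against 2.81, 1.37 and -1.40 with them, and the part of epithelial RNA in other ratios was not tested.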

How the data were processed

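The deposited files hold raw UMI counts per gene and barcode, made with Cell Ranger 4.0.0 per the file headers; mm10 is the build named in the submitters' processing notes, and the labels' protocols name a Chromium 3' kit. The sources used here do not state alignment and cell-calling settings. Of 27998 gene identifiers 27645 matched the GENCODE M21 annotation, which gave coordinates on GRCm38.

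Counts were summed over the cells of a class in each library and divided by their total to give CPM. Ratios carry conditional exact Poisson intervals and shares exact Clopper-Pearson or Newcombe intervals. Members, gene lists and their limits were chosen with earlier results of these data known, and the subsets were chosen after seeing the data. List medians use log2 ratios with 5 CPM added, over list members with at least 20 UMIs. Genes were named by ranking the interval bound nearest to 1 among genes with at least 50 UMIs and 50 CPM, 12 each way, leaving out ribosomal and mitochondrial genes, a short list of sex-specific genes such as Xist, genes of other cell types and those where 1 cell held over 25% of the UMIs of a library. From each list up to 3 genes with at least 50 UMIs and the most extreme ratio were eligible, with the drug targets, Ern1, Xbp1, gate genes, adventitial markers and the 15 genes each way that differed most between members and alveolar fibroblasts. Hsph1, Stip1, Hspa8, Hspd1, Tcf21, Limch1, Cebpa and Ebf2 were named after their values were seen. Sums were checked on simulated data. Software was Python 3.11.15 with scipy 1.17.1, pandas 2.3.3 and scanpy 1.11.5 (Scrublet, expected rate 6%), and edgeR 4.0.16 and DESeq2 1.42.0 for alternative scaling factors only, since 1 library per group allows no test. Other alternatives changed the limits of the choice, the depth per cell, the UMI minimum and the pseudocount. Depth limits the precision: a gene with no UMI in a library allows up to 3 counts there.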

Additional observations from a re-analysis of the deposited data

Results flagged for a closer look

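In 3 flagged cases the difference between navitoclax and vehicle ran in opposite directions in 2 sets of cells of the same libraries. They are not the only such genes, since Postn, Rgs2, Cxcl10 and Apod above also differed in direction between sets. With 1 library per group, the difference between the sets was not tested. Ptn, the heparin-binding growth factor pleiotrophin, had a log2 ratio of -0.82 in members (9.69 CPM in navitoclax and 21.0 CPM in vehicle), whereas its ratio was 3.48 in alveolar fibroblasts. Ccl2 had a log2 ratio of 2.84 in members (96.9 CPM in navitoclax and 9.20 CPM in vehicle) and a ratio of 0.496 in alveolar fibroblasts; without the cell with the most Ccl2 UMIs in each library the log2 ratio in members was 1.88. Cxcl14 had a log2 ratio of -0.76 in Pi16/Ccl11-high members, against a ratio of 4.58 in Aspn/Hhip-high members, and 1 cell held 125 of the 581 navitoclax UMIs and 1 cell held 66 of the 127 vehicle UMIs over all members.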

How the results depend on the processing

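No paired analysis was possible because each group has 1 library and no replicate numbers. The share of members stayed higher in navitoclax under all 11 alternatives that changed the choice of cells, with differences of 3.50 to 5.68 points. It was 3.62 points with at least 10 UMIs of Pi16+Dpt+Ccl11 per 10000 (7.67% in navitoclax and 4.05% in vehicle) and 3.50 points with the limit on Npnt+Ces1d without Inmt (26.0% in navitoclax and 22.5% in vehicle). The count of 322 higher genes was 494 after thinning to 2000 UMIs, 113 with at least 100 UMIs, 626 with a pseudocount of 1 CPM, 66 with the limit without Inmt, 38 with no limit on alveolar genes, 489 in Aspn/Hhip-high members and 513 in Pi16/Ccl11-high members. The count of 381 lower genes was 117 with at least 100 UMIs, 696 with a pseudocount of 1 CPM, 47 with the limit without Inmt, 21 with no limit and 739 in Pi16/Ccl11-high members; the cause of these shifts was not tested, except that fewer genes were counted at 100 UMIs.

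A turn of direction was counted only for genes past 1.5-fold in the main analysis and for list medians beyond a set distance from 0. Among log2 ratios of named genes, 29 values turned in this sense, 500 others moved beyond the counting interval and 2915 did neither. Among list medians 18 turned, 33 moved and 816 did neither. Changes of sign in smaller values are not among these turns. Ly6a, at 0.47 in the main analysis, fell as low as -0.39, and the immediate early list, at -0.14, rose as high as 0.16. With Npnt+Ces1d+Inmt under 5 per 10000, the epithelial list turned to 0.67, Chil1 to 0.60, Figf to -0.032 and Fst to -0.079. After thinning, the cycling list was at 0.045, Prss23 at 0.18, Scara5 at 0.15, Omd at 0.080 and Fst at -0.91. With no minimum of UMIs, the leukocyte list was at 0.0075 and the cycling list at 0.094. With the limit without Inmt, the alveolar list was at -0.077, the peribronchial list at 0.40, smooth muscle at 0.21, cycling at 0.018 and complement at -0.054, while Fmod was at -0.089, Lgr6 at 0.086, Col12a1 at 0.076, Irf1 at -0.042, C7 at -0.35 and Apod at -0.090. With no limit, the alveolar list was at -0.12, peribronchial at 0.41, smooth muscle at 0.11 and the BCL-2 anti-apoptotic list at 0.018, while Fmod was at -0.17, Lgr6 at 0.13, Figf at -0.081, Col12a1 at 0.22, Irf1 at -0.024, Cxcl14 at -0.011, C7 at -0.26 and Apod at -0.11. In Aspn/Hhip-high members, the BCL-2 anti-apoptotic list was at 0.078, Bst2 at -0.058 and Ifi27l2a at -0.054. In Pi16/Ccl11-high members, the peribronchial list was at 0.085, smooth muscle at 0.43, cycling at 0.059, Rgs2 at 0.59, Cxcl10 at -0.30, Arid5b at 0.016, Cxcl14 at -0.76 and Apod at -0.25. Without cells with 5% or more epithelial UMIs, the leukocyte list was at 0.25 and Chil1 at 0.094. The limits without Inmt and with no alveolar genes, the 2 subsets and the removal of epithelial-rich cells were chosen after seeing the data. The cause of these turns was not tested. Pi16/Ccl11-high members numbered 86 in navitoclax and 54 in vehicle, so their sums are less precise than those of Aspn/Hhip-high members. Members chosen mainly by Dpt were fewer still, at 52 in navitoclax and 18 in vehicle.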
